A study of Mus musculus with 2 samples.

Results

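Notch signalling between cells was examined through 4 genes, the receptors Notch1 and Notch4 and the ligands Jag1 and Dll1, chosen by name from the 500 genes imaged by MERFISH, a method that reads single barcoded RNA molecules in tissue. Both samples are sections of mouse liver, given by their labels as replicates 1 and 2 of a single group (2 sections, 1 group). Genotype, strain, age and treatment of the mice are not given in these labels. The tag 2d that both carry was not interpreted, and the design text of the series describes treated mice with liver metastases, which neither label mentions, so no treatment was assigned. Nothing states that separate animals were used. Fits below treat section as a block unless stated, which removes a shift shared by all groups of a section. Their p-values therefore measure counting error and disagreement between these sections in the differences compared, which may be technical.

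Notch receptors sit in the membrane of one cell and are activated by ligands of the Jagged and Delta families on a touching cell. Activation frees the intracellular part of the receptor, which enters the nucleus and acts on target genes with the DNA-binding protein RBPJ. In the liver, Jag1 is known for its part in bile duct formation, and Notch1 and Notch4 for their expression in blood vessel lining. Of 36 other genes of the pathway on a fixed list (receptors, ligands, processing enzymes, nuclear partners and targets), 1 was measured, Sox9, a transcription factor of bile duct cells and a target of the pathway.

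The sequences just upstream of the receptors are shown because both receptors were high in the same group of cells in the results that follow. All 4 genes matched the RefSeq promoter table (build GRCm38.p6), with 5 start sites in all. On each, the 250 bases before the start were searched on both strands for CAGGAA, a core of ETS factor sites, and for TGGGAA, a core of RBPJ sites. The Notch1 window lies at chr2:26503823-26504072 on the minus strand and the Notch4 window at chr17:34564045-34564294 on the plus strand. Capitals mark CAGGAA or its reverse complement.
Notch1: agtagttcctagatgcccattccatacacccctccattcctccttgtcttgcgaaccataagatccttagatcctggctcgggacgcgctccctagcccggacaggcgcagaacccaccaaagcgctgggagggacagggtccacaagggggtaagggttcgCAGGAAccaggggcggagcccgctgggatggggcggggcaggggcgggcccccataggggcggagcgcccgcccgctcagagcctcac
Notch4: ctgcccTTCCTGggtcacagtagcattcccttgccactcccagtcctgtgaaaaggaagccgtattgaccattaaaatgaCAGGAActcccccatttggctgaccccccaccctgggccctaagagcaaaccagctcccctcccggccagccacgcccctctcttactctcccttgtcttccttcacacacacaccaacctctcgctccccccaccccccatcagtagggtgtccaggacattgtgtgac
The ETS letters stood 1 time in the Notch1 window and 2 times in the Notch4 window, and in none of the windows of Jag1 and Dll1. Of all 32851 promoter windows of this length, 25.7% held them. The RBPJ letters were in none of the 5 windows and in 21.6% of all windows. These matches describe letters and not binding. The gene bodies of Notch1 (26457902 to 26503822) and Jag1 (137081451 to 137116520) lie on chromosome 2, and those of Dll1 (15367354 to 15376932) and Notch4 (34564286 to 34588543) on chromosome 17.

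Of 26037 segmented cells in section 1 and 85929 in section 2, 9209 and 16290 held at least 10 gene counts and a volume of at least 50 and were kept. Their medians were 27 and 15 counts, and their gene counts summed to 390108 and 299795. No cell identifier was shared by the sections. Levels are given per 10000 gene counts of the same cells with exact 95% Poisson intervals, which cover counting error only. The 50 blank barcodes, which name no gene, give the background, and the mean blank held 51.3 and 19.2 counts in kept cells.

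Notch1, a receptor found on many cell types, was the most often counted of the 4 genes, with 1508 counts in section 1 and 444 in section 2. These were 29.4 and 23.1 times the mean blank and above all 50 blanks in both sections. Notch4, a receptor known mainly from endothelium, had 387 and 146 counts, 7.54 and 7.60 times the mean blank, above 50 and 49 blanks. The receptors thus stood clear of nearly every blank.

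The ligands lay closer to background. Jag1 had 129 counts in section 1 and 37 in section 2, 2.51 and 1.93 times the mean blank, and 45 and 46 blanks were lower. Dll1, a Delta-type ligand, had 134 and 100 counts, 2.61 and 5.21 times the mean blank, with 45 and 49 blanks lower. Both ligands therefore fell within the range of the blanks in both sections. A count of 1 of these genes in a cell cannot be told apart from a misread barcode. Jag1 was counted in 115 and 37 kept cells, of which 8 and 0 held 2 or more counts, and the highest count in a cell was 6.

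Cells were sorted into groups by counts of fixed marker genes, at least 3 counts from at least 2 markers, with none of the 4 genes among the markers. The rule was not symmetric. A cell that met it for another group was placed there whatever its hepatocyte marker counts. Among the other groups the highest marker sum decided, and ties stayed unassigned. The groups held 5785 and 14062 hepatocyte-marker cells, 302 and 45 endothelial-marker cells and 187 and 177 mesenchymal-marker cells (from 5 measured markers, Col1a1, Col3a1, Pdgfra, Acta2 and Thy1). Only 6 and 0 cells were placed in the group of bile duct cells. Markers of the group's own kind were enriched as the rule requires, and in endothelial-marker cells all 8 measured markers were counted in both sections. Counts of hepatocyte markers made up 2363 per 10000 in endothelial-marker cells of section 1 and 3091 in section 2, and 1798 and 1410 in mesenchymal-marker cells, beside 3548 and 4868 in hepatocyte-marker cells. Their part in the levels below was not tested.

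Notch1 was highest in endothelial-marker cells of section 1, at 145 per 10000 (95% interval 131 to 161, 352 counts), against 22.6 in hepatocyte-marker cells (20.7 to 24.7). In section 2 the values were 52.0 (20.9 to 107, 7 counts) and 12.3 (11 to 13.8). Mesenchymal-marker cells followed with 90.0 (74.7 to 108) in section 1 and led with 59.2 (37.9 to 88.0) in section 2. The order of these groups was thus resolved in section 1 and not in section 2, where their intervals overlapped, while both stood above hepatocyte-marker cells in each section. Over the 2 sections the mean Notch1 level was 98.7 ± 66.1 (SD, n = 2) in endothelial-marker, 74.6 ± 21.8 in mesenchymal-marker and 17.5 ± 7.27 in hepatocyte-marker cells.

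Notch1 was also counted in the immune and erythroid groups. Monocyte and neutrophil-marker cells held 64.5 in section 1 and 26.4 in section 2, and macrophage-marker cells 43.1 and 34.4. Erythroid-marker cells were lower than hepatocyte-marker cells at 12.9 and 9.03, with overlapping intervals in section 2. In section 1 the interval of monocyte and neutrophil-marker cells (55.7 to 74.4) lay above that of hepatocyte-marker cells, while in section 2 (9.70 to 57.5) it overlapped it. Cells left unassigned, by meeting no rule or by a tie between groups, held 53.5 and 31.2. Their mean blanks were 2.76 and 2.60 per 10000, beside 1.46 and 0.463 in hepatocyte-marker cells.

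Notch4 reached 59.5 per 10000 (50.2 to 70.0, 144 counts) in endothelial-marker cells of section 1 and 29.7 (8.10 to 76.1, 4 counts) in section 2, against 5.88 (4.93 to 6.97) and 3.96 (3.24 to 4.80) in hepatocyte-marker cells. The intervals did not overlap in either section. Mesenchymal-marker cells held 20.8 (13.8 to 30.1) and 9.86 (2.69 to 25.3). Endothelial-marker cells were thus clearly first in section 1 and not resolved from mesenchymal-marker cells in section 2. Monocyte and neutrophil-marker cells held 2.38 in section 1 and 0 counts in section 2, where 3 counts would be 13.2 per 10000 and the exact interval reaches 16.2. Erythroid-marker cells held 1.55 in section 1 and, from 4 counts, 12 (3.28 to 30.8) in section 2, below hepatocyte-marker cells in one section and above them in the other. In section 1, 33.1% of endothelial-marker cells had a Notch4 count beside 2.13% of hepatocyte-marker cells, at median depths of 61.5 and 28 counts; in section 2 the shares were 8.89% and 0.711% at 22 and 16 counts.

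**Figure D1:**
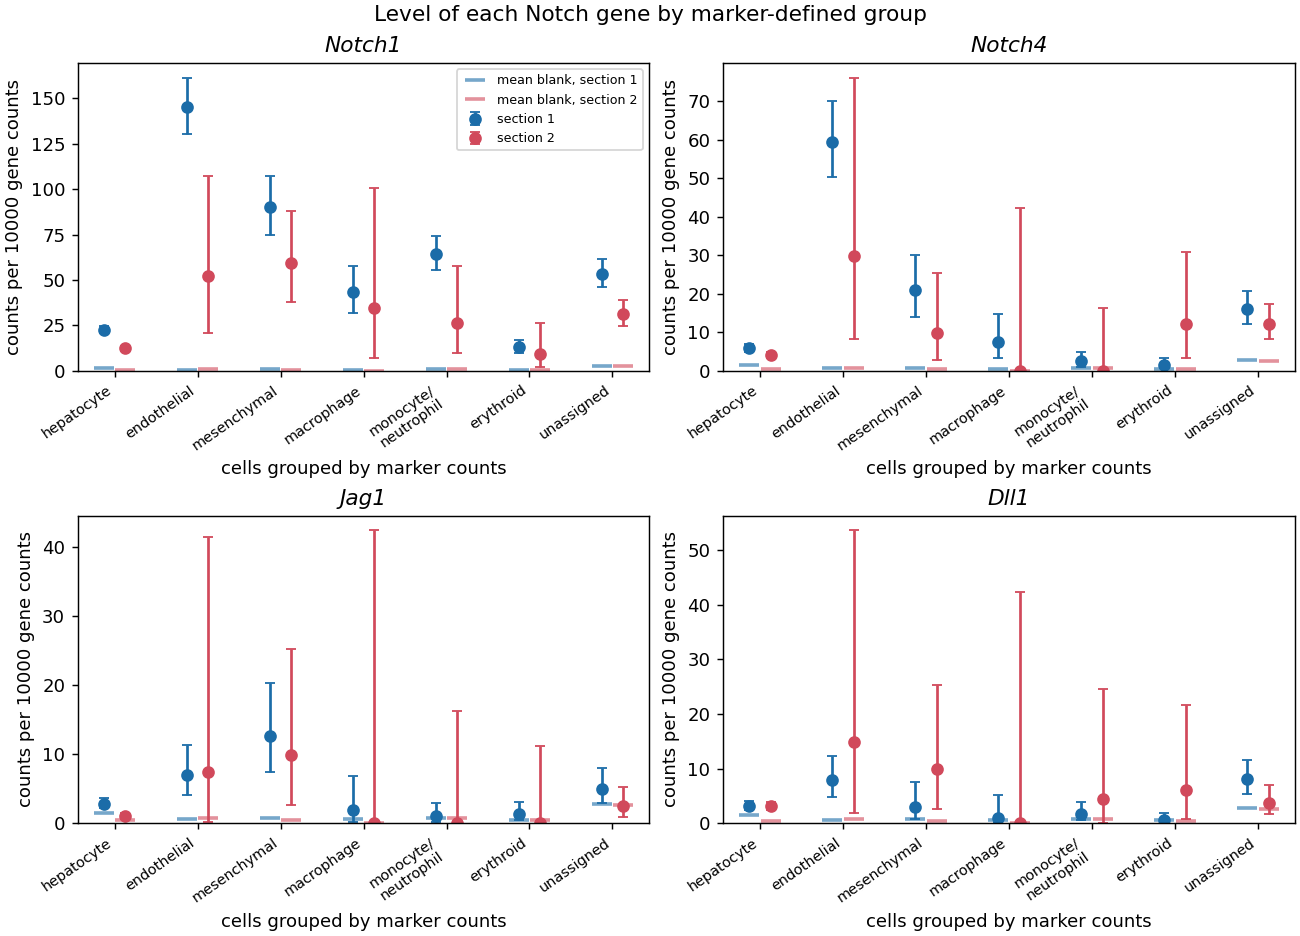
Level of each gene (y axis, counts per 10000 gene counts) in cells grouped by marker counts (x axis), with exact 95% Poisson intervals; short bars are the mean blank barcode in the same cells. Notch1 and Notch4 are highest in endothelial-marker cells of section 1 (145 and 59.5), and the intervals of section 2 are wide because it holds 45 such cells.

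Among groups with at least 30 cells in each section, Jag1 was highest in mesenchymal-marker cells, at 12.6 per 10000 (7.36 to 20.2) in section 1 and 9.86 (2.69 to 25.3) in section 2, against 2.83 (2.19 to 3.61) and 0.990 (0.647 to 1.45) in hepatocyte-marker cells. These levels rest on 17 counts in 10 cells and 4 counts in 4 cells, where the mean blank stood at 0.744 and 0.394 per 10000. Endothelial-marker cells held 7.02 (4.09 to 11.2, 17 counts) and 7.43 (0.188 to 41.4, 1 count). The 6 bile duct marker cells of section 1 held 2 Jag1 counts, 35.3 per 10000 with an interval of 4.28 to 128. Jag1 thus stood above hepatocyte-marker cells in mesenchymal-marker cells of both sections, and the other differences in section 2 were not detectable at this depth.

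Dll1 rested on few counts in the marker-defined groups other than hepatocyte-marker cells. It stood at 3.18 (2.49 to 4.00) and 3.12 (2.48 to 3.88) in hepatocyte-marker cells, and at 7.85 (4.73 to 12.3, 19 counts) and 14.9 (1.80 to 53.7, 2 counts) in endothelial-marker cells. In mesenchymal-marker cells it held 2.97 and 9.86, each from 4 counts. Its endothelial level exceeded the hepatocyte level in section 1, and in section 2 the intervals overlapped.

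The test of these differences used edgeR's quasi-likelihood model on counts summed per section and group, with section as a block and Benjamini-Hochberg adjustment over all genes tested, in groups of at least 50 cells per section. It called 27 of 340 genes between mesenchymal-marker and hepatocyte-marker cells, 7.94% of those tested, and 2 of the 4 Notch genes. Notch1 was higher by 1.75 ± 0.48 (log2, SE, adjusted p = 0.0087), and the single sections gave 1.98 and 2.24. Jag1 was higher by 2.26 ± 0.72 (adjusted p = 0.028), with 2.06 and 3.00. Notch4 (1.44 ± 0.63, adjusted p = 0.16) and Dll1 (0.40 ± 0.80, adjusted p = 0.85) did not pass. The median of the 4 log2 differences was 1.60, beside -0.25 over all tested genes. Differences within single sections carry no TMM scaling and can both lie on one side of the estimate. Without section as a block no gene was called in this contrast (37 had an unadjusted p under 0.05, and DESeq2, fitted with the block, made 38 calls), and the adjusted p was 0.25 for Notch1 and 0.27 for Jag1.

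Endothelial-marker cells of section 2, at 45, fell below that minimum. A minimum of 30 cells, chosen after this was seen, let the contrast be fitted. It called 34 of 347 genes against hepatocyte-marker cells, 9.8% of those tested, and 2 of the 4 Notch genes, both receptors. Notch4 was higher by 2.80 ± 0.52 (edgeR adjusted p = 4.5e-06), and single sections gave 3.26 and 2.79. Notch1 was higher by 2.01 ± 0.41 (adjusted p = 4.2e-05), with 2.66 and 2.04. Dll1 (1.26 ± 0.59, adjusted p = 0.14) and Jag1 (1.26 ± 0.66, adjusted p = 0.20) did not pass. The median of the 4 was 1.64, beside -0.47 over all tested genes. Without section as a block Notch1 no longer passed (adjusted p = 0.083), while Notch4 did (0.042). With cells admitted at 2 marker counts, 17% of 352 genes were called, Notch1 and Notch4 among them (2.20 ± 0.26 and 2.86 ± 0.39).

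No Notch gene was called in erythroid-marker cells (14.4% of tested genes called) or in monocyte and neutrophil-marker cells (15%). In the latter, Notch1 differed by 0.72 ± 0.49 (adjusted p = 0.31) and Notch4 by -1.80 ± 0.83 (adjusted p = 0.12). The direction was opposite for the receptors, and neither passed the test. Notch1 passed under 5 of 7 alternatives: 1.46 without TMM, 1.96 scaled by cell volume, 1.12 with DESeq2, 1.01 without a count minimum and 0.93 with cells admitted at 2 marker counts. In the same order, 88 of 340, 96 of 340, 51 of 267, 82 of 439 and 117 of 352 tested genes were called. The median over all tested genes moved from -0.52 to 0.12 without TMM and to 0.64 scaled by cell volume. With the minimum of 30 cells, macrophage-marker cells could be fitted, and 52 of 347 genes were called, none of them a Notch gene.

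**Figure D2:**
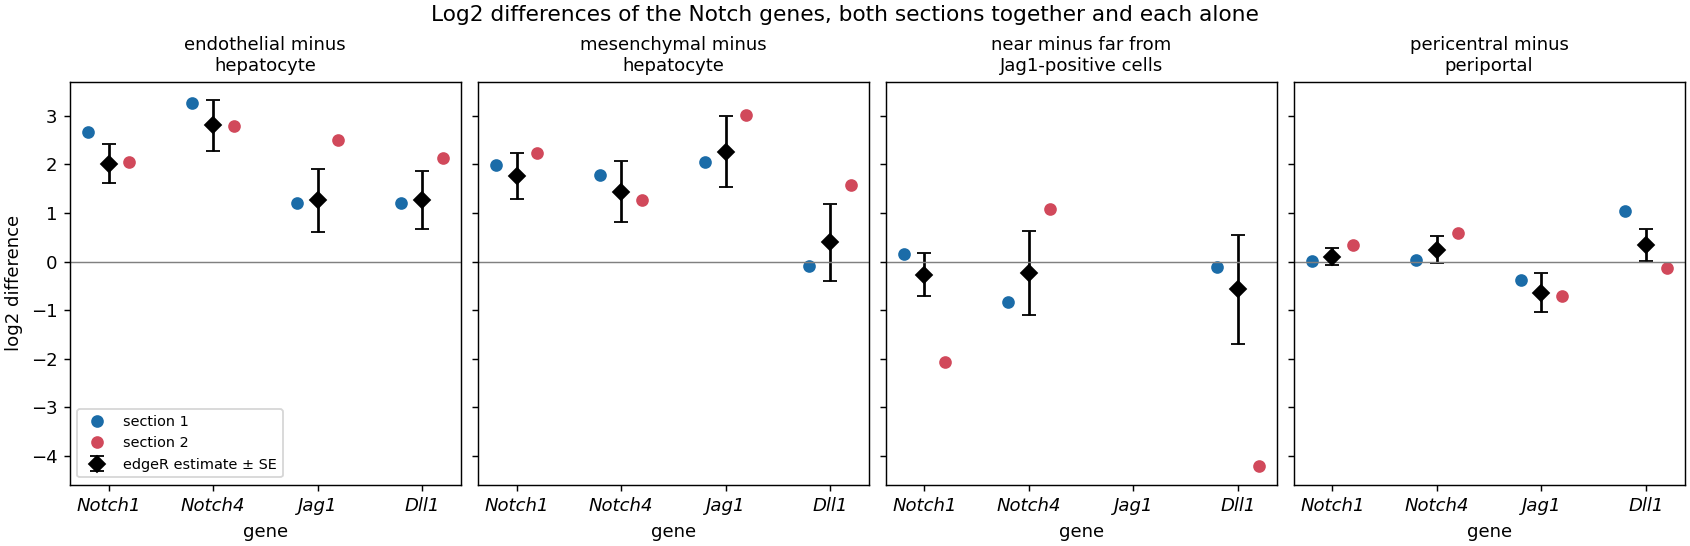
Log2 differences (y axis) of each gene (x axis) in 4 contrasts; diamonds are edgeR estimates with SE over both sections and dots are the single sections, with no Jag1 value near Jag1-positive cells because it defined them. Notch4 in endothelial-marker cells (2.80) and Jag1 in mesenchymal-marker cells (2.26) lie above 0 in both sections, and no gene of the near and pericentral panels passed the test.

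The receptors also varied with the number of endothelial marker counts in a cell, without any rule for groups. In section 1 Notch4 stood at 4.24, 11.8, 23.0 and 50.1 per 10000 in cells with 0, 1, 2 and 3 or more such counts, and in section 2 at 3.76, 12.3, 30.9 and 39.2. Each step was upward in both sections, although the last step in section 2 lay within its interval (14.4 to 85.3). Notch1 ran from 26.6 through 36.3 and 71.0 to 132 in section 1 and from 12 through 37.0 and 74.6 to 71.8 in section 2. Along the mesenchymal markers Jag1 stood at 2.27, 4.24, 6.47 and 12 in section 1 and 0.849, 1.24, 2.25 and 13.4 in section 2. Neither pattern was exclusive: Jag1 also ran from 2.73 (2.16 to 3.40) to 6.23 (3.86 to 9.52) along the endothelial markers in section 1, and along the mesenchymal markers there Notch1 ran from 32.4 to 86.4 and Notch4 from 8.65 to 19.6. Median counts per cell in these bins ran from 25 to 70 along the endothelial markers and from 26 to 38 along the mesenchymal markers in section 1, and from 15 to 24 and from 15 to 18 in section 2, and the part of depth in these levels was not tested.

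**Figure D3:**
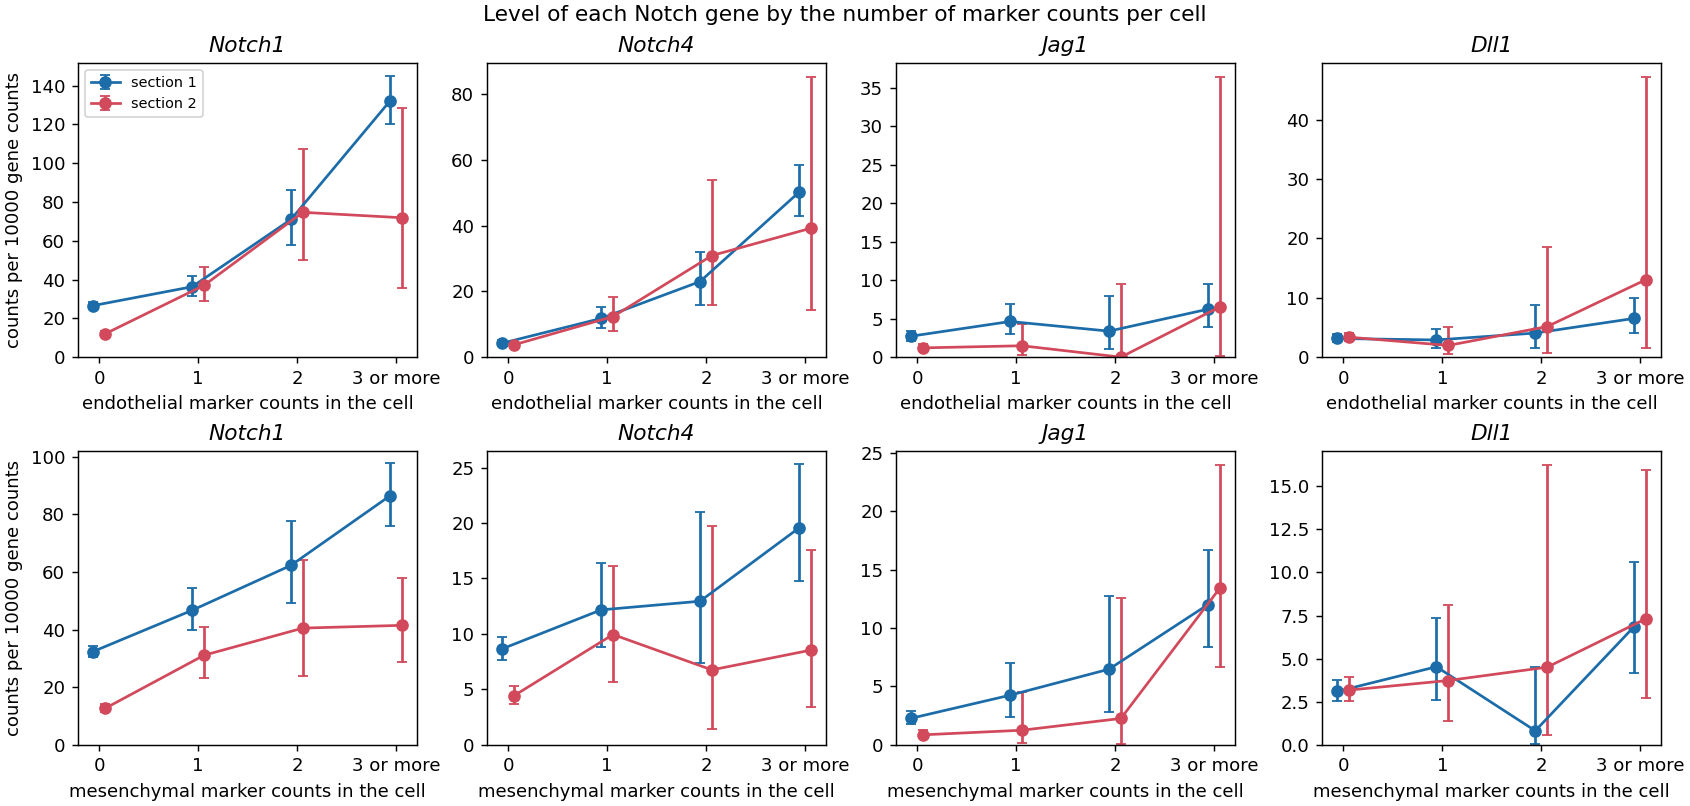
Level of each gene (y axis, counts per 10000 gene counts, exact 95% Poisson intervals) in cells with 0, 1, 2 and 3 or more endothelial (top) or mesenchymal (bottom) marker counts (x axis). Notch4 climbs from 4.24 to 50.1 with endothelial markers in section 1 and Jag1 from 2.27 to 12 with mesenchymal markers.

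Notch4 was counted in a larger share of Notch1-positive than of Notch1-negative cells, though most Notch1-positive cells held none. In section 1, 131 of 1015 Notch1-positive cells held Notch4 (12.9%, Clopper-Pearson 95% interval 10.9 to 15.1), beside 2.22% (1.91 to 2.56) of Notch1-negative cells. Section 2 gave 13 of 419 (3.10%, 1.66 to 5.25) beside 0.794% (0.662 to 0.944). Notch4 was then counted after thinning each cell to 10 counts. The shares became 2.78% and 0.914% in section 1 and 1.56% and 0.446% in section 2, in the same order. Notch1-positive cells were still chosen before thinning (medians of 56 against 25 and 18 against 15 counts), so depth was not equal in that choice. The part of depth in these shares was not tested. Cells with the ligand Jag1 held Notch1 in 34 of 115 cases in section 1 (29.6%, 21.4 to 38.8) beside 10.8% of Jag1-negative cells, and in 2 of 37 in section 2 (5.41%, 0.661 to 18.2) beside 2.57%. After the same thinning for Notch1, with Jag1-positive cells chosen before it, these were 7.54% and 3.25%, and 2.95% and 1.49%. The Jag1 share was above the negative cells in section 1 and not resolved in section 2.

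Ligand and receptor cells were then related by distance. From each Jag1-positive cell the distance to the nearest other Notch1-positive cell was taken, with the same distance from Jag1-negative cells (kept cells with no Jag1 count) as comparison and µm assumed as the unit, since the headers name none. In section 1 the median was 25 µm from Jag1-positive cells (quartiles 14.1 and 49.7) against 36.8 µm (19.1 and 66.7). Shares within 25 µm were 49.6% against 34.6%. Section 2 went the other way at the median, with 74.3 µm (35.6 and 90.6) against 66.4 µm (37.9 and 117). Its shares within 25 µm were 5.41% against 12.4%. Both of its quartiles were shorter from Jag1-positive cells. The sections thus disagreed in the direction of the median for Notch1 and not of the quartiles. The median of section 2 also turned with the choice of cells. It was 71.7 against 83.2 µm among cells with at least 20 gene counts and 46.5 against 66.1 µm over every segmented cell with a count.

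For Notch4 the disagreement in medians was reversed. Section 1 gave 74.2 µm against 73.1 µm, and section 2 gave 87.4 µm against 131 µm. Both quartiles were shorter from Jag1-positive cells, at 31.9 against 37.5 µm and 113 against 123 µm in section 1. In section 2 they were 52.9 against 72.3 µm and 172 against 226 µm. Taking a cell with either receptor as the target, Jag1-positive cells were closer in both sections, at 24.8 against 32.5 µm and 46.9 against 57.9 µm, a mean log2 ratio of -0.35 ± 0.06 (SD, n = 2). No test of this ratio was made. It was not shared by all groups: in mesenchymal-marker cells Jag1-positive cells were farther, with log2 ratios of 0.48 and 0.02 from 10 and 4 cells, and hepatocyte-marker cells gave -0.52 in section 1 and 0.18 in section 2. Jag1-positive cells held more counts than Jag1-negative ones (medians of 53 against 27 and 23 against 15). Within strata of total count, the distance to either receptor in section 1 was 28.3 against 41.3 µm at 10 to 19 counts, 26.7 against 31.0 µm at 20 to 39 and 22.4 against 26.5 µm at 40 or more. In section 2 it was 66.7 against 65.1 µm, 34.0 against 46.4 µm and 67.4 against 41.2 µm, the last from 6 Jag1-positive cells, so the direction there changed with the stratum.

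The distance to the nearest cell with any blank served as a background. It was 24.1 against 23.0 µm in section 1 and 48.1 against 49.5 µm in section 2, and the nearest kept cell of any kind lay at 11.1 against 11.1 µm and 11.8 against 11.4 µm. The log2 ratio of median blank distances was thus 0.07 and -0.04, beside -0.56 and 0.16 for Notch1 and 0.02 and -0.58 for Notch4. The Notch4 ratio in section 1 departed from 0 less than the blank ratio did. Away from the median, blank distances in section 2 were also shorter from Jag1-positive cells. They were 24.2 against 28.6 µm and 71.6 against 85.0 µm at the quartiles, and 85.1 against 134 µm at the 90th percentile. In section 1 the quartiles were 13.3 against 13.6 µm and 42.2 against 43.3 µm. Within strata of total count the blank ratio reached 0.40 (20 to 39 counts, section 2). Within hepatocyte-marker cells the Notch1 distance was 22.6 against 35.4 µm in section 1 and 77.6 against 65.5 µm in section 2. Dll1-positive cells had medians of 29.4 against 36.7 µm and 61.2 against 66.4 µm to Notch1, and 25 against 32.5 µm and 52.1 against 57.9 µm to either receptor. To Notch4 their log2 ratios were 0.01 and -0.13. They also held more counts than Dll1-negative cells (medians of 48.5 against 27 and 19 against 15). Within strata of total count the direction changed. The log2 ratios to either receptor were 0.07 and 0.13 at 10 to 19 counts, 0.07 and -0.28 at 20 to 39 and -0.43 and 0.80 at 40 or more.

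**Figure D4:**
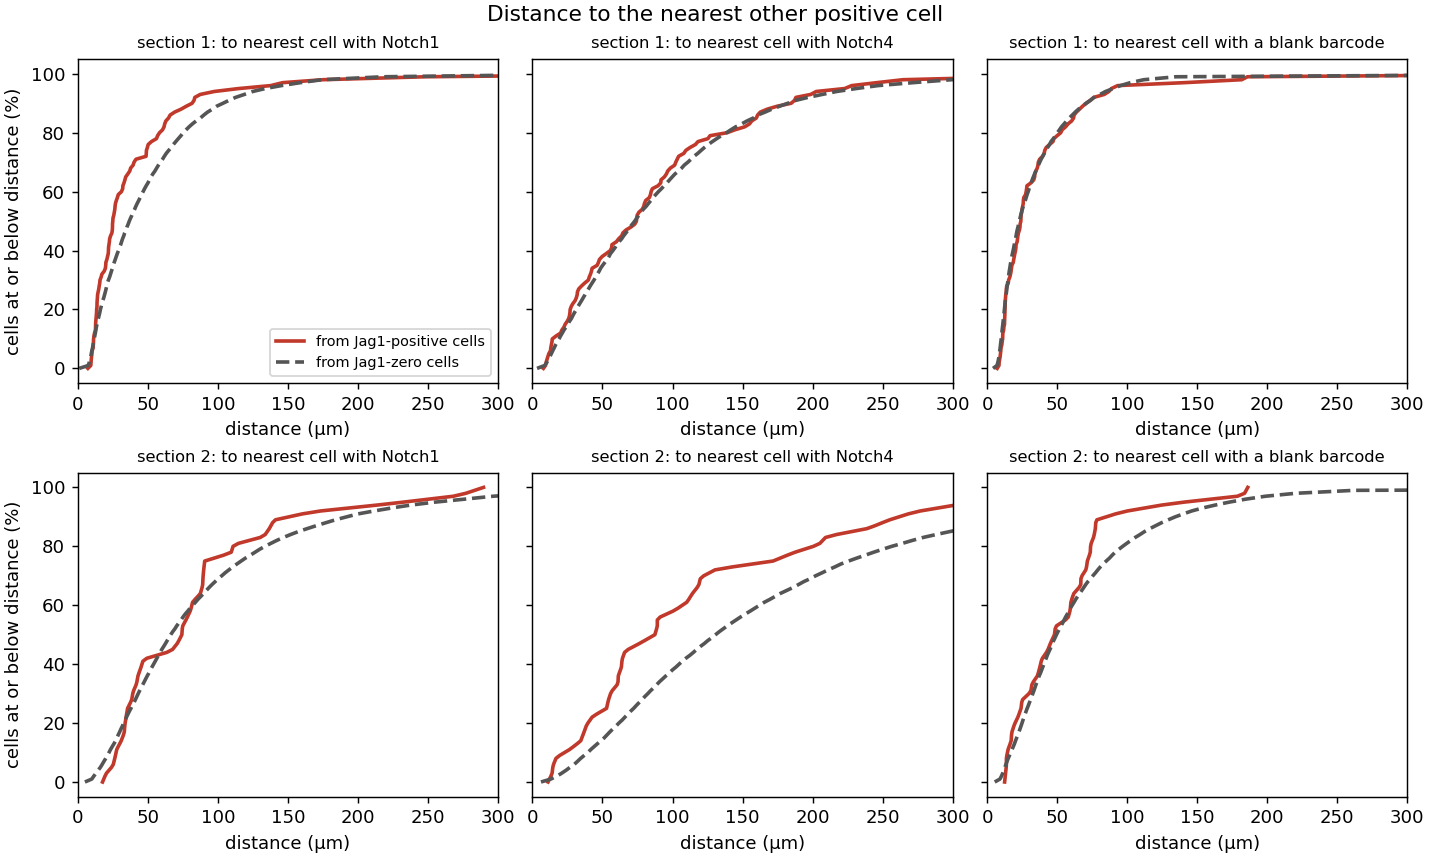
Cumulative share of cells (y axis, percent) within a given distance (x axis, µm) of the nearest other cell with Notch1, Notch4 or a blank barcode, from Jag1-positive (solid) and Jag1-negative (dashed) cells. The curves part for Notch1 in section 1 (medians 25 and 36.8 µm) and for Notch4 in section 2 (87.4 and 131 µm). Those for blanks in section 2 also part above the median (75th percentile 71.6 and 85.0 µm).

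**Figure D5:**
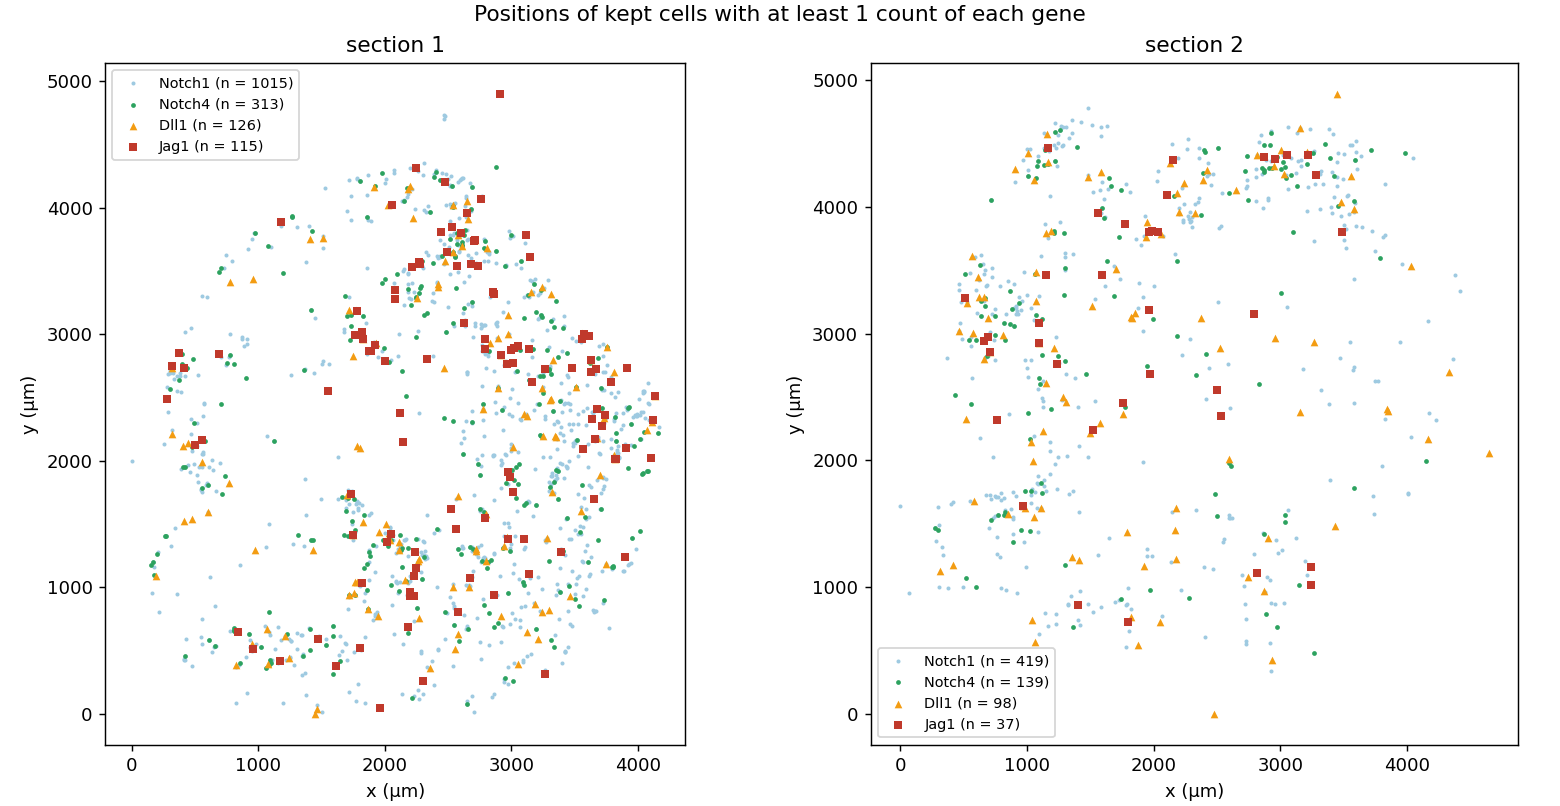
Positions (x and y axes, µm from the lowest value in the section) of kept cells with at least 1 count of each gene. Section 1 holds 1015 Notch1-positive and 115 Jag1-positive cells, and section 2 holds 419 and 37.

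Receptor levels beside Jag1-positive cells were tested in hepatocyte-marker cells, the group that filled both arms. Cells within 25 µm of a Jag1-positive cell numbered 301 in section 1 and 153 in section 2, and those beyond 50 µm 4969 and 13447. Notch1 stood at 23.6 (16.1 to 33.5) near against 21.3 (19.3 to 23.4) far in section 1, and at 2.84 (0.0720 to 15.9, 1 count) against 12.5 (11.2 to 14.0) in section 2. Mesenchymal markers in these cells stood at 54.9 per 10000 near and 47.6 far in section 1 and at 114 and 44.6 in section 2. Endothelial markers stood at 48.8 near and 43.3 far in section 1, and were lower near in section 2, at 17.1 and 40. The median number of kept cells within 50 µm was 18 near and 11 far in section 1 and 28 and 18 in section 2. The part of these markers and of cell density in the levels was not tested. The edgeR test called 0 of 361 genes, 0% of those tested (6 at an unadjusted p under 0.05, and 0 by DESeq2). The log2 differences were -0.27 ± 0.45 for Notch1, -0.23 ± 0.87 for Notch4 and -0.57 ± 1.13 for Dll1, each with an adjusted p of 0.996. The sections had opposite signs for Notch4, at -0.83 and 1.08, the latter from 3 counts near Jag1-positive cells. With these standard errors, differences near 1 on the log2 scale would mostly be missed: on simulated data for this comparison the test recovered 21.4% of genes changed by 1 and 59.6% of those changed by 2. The simulation gave each change equally to both sections, with a single fixed spread for all genes. Its rates average over genes of all levels. In the near arm of section 2, Notch1, Notch4 and Dll1 held 1, 3 and 0 counts, so the rates do not describe recovery for them. Recovery where sections disagree, as here for Notch1 and Notch4, was not simulated.

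Along the lobule, the repeating unit of liver between portal and central veins, none of the 4 genes passed in hepatocyte-marker cells. The comparison of the most pericentral with the most periportal of 3 equal bins called 42 of 338 genes, 12.4% of those tested. Notch1 stood at 25.2 and 25.3 per 10000 (periportal, pericentral) in section 1 and 11 and 14.0 in section 2, a log2 difference of 0.10 ± 0.18 (edgeR adjusted p = 0.81). Notch4 differed by 0.24 ± 0.28 (0.72) and Dll1 by 0.34 ± 0.34 (0.66), the latter with opposite signs in the sections (1.04 and -0.13). Jag1 was at 3.83 and 2.88 in section 1 and 1.46 and 0.769 in section 2, a difference of -0.64 ± 0.41 (0.43), lower in the pericentral bin of both sections. Sox9, the other pathway gene measured, had 161 and 115 counts in kept cells. The highest blanks had 268 and 410, so Sox9 too lay within the range of the blanks. In hepatocyte-marker cells Sox9 was lower by 1.81 ± 0.34 in the pericentral bin (edgeR adjusted p = 2.9e-06), with -1.20 and -1.92 in the single sections. Without section as a block this call was lost (adjusted p = 0.996), as were all others of the position contrast (0 called, 10 before adjustment at 0.05), while DESeq2, which kept the block, made 16 calls. In mesenchymal-marker cells Sox9 did not pass (1.35 ± 0.67, adjusted p = 0.26).

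Over the 12 sums of 6 groups in 2 sections, the genes whose log2 level ran most like each Notch gene were ranked among 403 genes by Pearson's r, which describes sums that share libraries and depth. For Notch4 these were Wnt2 (0.94), Lyve1 (0.88), Rhoj (0.86), S100a10 (0.85) and Ushbp1 (0.83). Without endothelial-marker sums these were 0.91, 0.85, 0.77, 0.91 and 0.67. Notch1 ran with Klc1 (0.77), Il6st (0.74), Cdh5 (0.73), Pkm (0.70) and Hoxb4 (0.70). The nearest to Jag1 were Metrnl (0.88), Mmrn2 (0.85), Tcf7 (0.82), Tek (0.81) and Sox9 (0.80), and those to Dll1 were Ctla2a (0.84), Rhoj (0.78), Kdr (0.78), Ushbp1 (0.77) and Lyve1 (0.76). Without endothelial-marker sums the lowest of the 5 were 0.55 for Notch1 (Hoxb4), 0.76 for Jag1 (Tcf7) and 0.63 for Dll1 (Lyve1). Lyve1, Cdh5, Mmrn2, Tek and Kdr are endothelial markers used to form the groups. Wnt2 is a secreted signal known from liver sinusoidal endothelium.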

How the data were processed

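The deposited tables hold raw counts of 500 genes and 50 blank barcodes per segmented cell of 2 sections, with cell positions and volumes, and every decoded transcript. The labels' protocols describe frozen liver cut and imaged with Vizgen slides. The sources used here name no decoding or segmentation software. All gene columns were checked to hold whole numbers. Kept cells had at least 10 gene counts and a volume of at least 50. No doublet caller was run. Counts were summed per section and marker-defined group, arm or bin and tested with edgeR 4.0.16 (TMM, section as a block, at least 50 summed counts, adjusted p under 0.05), in R 4.3.3; marker genes, Jag1 and landmarks were left out of the fits they defined. DESeq2 1.42.0 was an alternative. Position came from Glul, Cyp2e1, Gulo, Pck1, Ass1 and Hsd17b13 in cells within 50 µm, with at least 5 neighbours. Intervals cover counting error only.  Distances, figures and intervals used Python 3.11.15, scipy 1.17.1 and matplotlib 3.10.9. The edgeR step was tested on simulated data. Named genes were the 4 genes, Sox9 from the pathway list and the 5 genes most like each. The members, lists and tests were chosen with earlier results of these data known.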

Additional observations from a re-analysis of the deposited data

Results flagged for a closer look

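The transcript tables also place molecules in no segmented cell, a signal that no comparison above used and that exceeds what a count of 0 allows. For Notch1, 535 of 2157 molecules in section 1 (24.8%) and 184 of 965 in section 2 (19.1%) lay outside cells. Notch4 had 223 of 656 (34.0%) and 76 of 336 (22.6%). Over all genes 40.1% and 34.4% of molecules lay outside cells, and over blanks 57.5% and 48.5%, so both receptors had lower shares than either in both sections. Jag1 had 89 of 231 (38.5%) and 55 of 124 (44.4%) outside, and Dll1 150 of 334 (44.9%) and 64 of 216 (29.6%). No difference between genes in this share was tested.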

How the results depend on the processing

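Of 162 recomputed differences of the 4 genes that carry an adjusted p, 141 kept their direction and their side of the threshold, 15 newly passed, 3 no longer passed and 3 turned. Jag1 and Dll1 in the mesenchymal contrast have no adjusted p under DESeq2. Of 52 differences and distance ratios in single sections, which have no test, 9 had the other sign. Values that changed follow, and the cause was not tested. Without section as a block (no replicate block), calls dropped to 0 in the mesenchymal, 6 in the endothelial, 15 in the erythroid, 8 in the monocyte and neutrophil and 0 in the position contrast, and Notch1 (1.81 mesenchymal, 2.15 endothelial) and Jag1 (2.33 mesenchymal) no longer passed. The block stands for section only, since the labels pair no samples. Without TMM, calls were 54 (mesenchymal, 34 higher against 12 of 27 before), 95 (erythroid), 88 (monocyte and neutrophil) and 1 (near), the median of all genes in the mesenchymal contrast moved from -0.25 to 0.07, and Notch4 (1.75 mesenchymal), Notch1 (1.46 monocyte and neutrophil) and Dll1 (1.64 endothelial) passed. Scaling by cell volume gave 58, 58 (57 higher, against 19 of 34), 85 and 96 calls in the mesenchymal, endothelial, erythroid and monocyte and neutrophil contrasts, and Notch4 (2.03 mesenchymal), Jag1 (2.03 endothelial), Dll1 (2.10 endothelial) and Notch1 (1.96 monocyte and neutrophil) passed, while Dll1 in the last turned to 0.045. Without a count minimum, calls were 50 (mesenchymal), 102 (erythroid) and 82 (monocyte and neutrophil), and Notch4 (1.47 mesenchymal) and Notch1 (1.01 monocyte and neutrophil, -1.05 erythroid) passed. DESeq2 called 19 endothelial and 16 position genes, and Notch1 passed in monocyte and neutrophil-marker cells (1.12). With 2 marker counts, chosen after seeing the data, calls were 64, 60, 110 and 117 in the mesenchymal, endothelial, erythroid and monocyte and neutrophil contrasts, and Notch4 (1.27 mesenchymal, -1.73 monocyte and neutrophil) and Notch1 (0.93 monocyte and neutrophil) passed. With a minimum of 30 cells, also chosen after seeing the data, 42 mesenchymal and 81 erythroid genes were called, and with 5 marker counts 41 mesenchymal ones. With at least 20 gene counts per cell, Notch4 passed in mesenchymal-marker cells (1.74), the mean level of Dll1 was 3.13 in all and 3.07 in hepatocyte-marker cells and that of Jag1 8.25 in endothelial-marker cells, and the log2 distance ratio of Jag1-positive cells to either receptor was -0.50. Over every segmented cell with a count that ratio was -0.62, and the one to Notch1 -0.74. With near set at 50 µm and far at 100 µm, Notch1 (0.28) and Notch4 (0.55) turned, neither passing.

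Each section alone gives a value with no test. In the mesenchymal contrast the lower and higher values were 1.98 and 2.24 for Notch1, 2.06 and 3.00 for Jag1 and -0.089 and 1.58 for Dll1. In the endothelial contrast they were 2.04 and 2.66 for Notch1, 2.79 and 3.26 for Notch4, 1.20 and 2.51 for Jag1 and 1.21 and 2.12 for Dll1. In the erythroid contrast they were -0.80 and -0.44 for Notch1, -1.76 and 1.54 for Notch4, -2.20 and -0.99 for Jag1 and -2.13 and 0.89 for Dll1. Monocyte and neutrophil-marker cells gave 1.08 and 1.5 for Notch1, -3.95 and -1.22 for Notch4 and -0.81 and 0.46 for Dll1. Near Jag1-positive cells they were -2.07 and 0.15 for Notch1, -4.21 and -0.11 for Dll1 and -0.83 and 1.08 for Notch4, and by position 0.0076 and 0.33 for Notch1, -0.13 and 1.04 for Dll1 and -0.72 and -0.38 for Jag1. The log2 distance ratio to Notch1 was -0.56 and 0.16 and that to Notch4 -0.58 and 0.02. The values -3.95, -2.20 and -4.21 rest on 0 counts in 1 arm of section 2 and are set by the prior count of 2, so they are no measured sizes. The near contrast with Jag1-positive cells of at least 2 counts could not be fitted, since section 2 held 0 such cells. Counts of both ligands and of Sox9, and of Notch4 in section 2 (49 of 50 blanks lower), lie within the range of the blanks.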

Other observations

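Cells with 1 to 9 gene counts, left out of every comparison, still held Notch transcripts. In section 1, 10361 such cells had 114 Notch1, 46 Notch4, 13 Jag1 and 50 Dll1 counts, and in section 2, 46820 cells had 337, 114, 32 and 52. Per 10000 gene counts, Notch1 stood at 29.8 and 19.2 and Jag1 at 3.40 and 1.82 in these cells, beside mean blanks of 6.55 and 0.947. Jag1 was thus below the mean blank in section 1 and above it in section 2.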
